A study of Mus musculus with 16 samples.

Results

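The plasma membrane of a red cell keeps phosphatidylserine on its inner face, and the genes described here encode the proteins that hold or undo that asymmetry. Flippases are P4-type ATPases that use ATP to carry aminophospholipids from the outer to the inner leaflet, and most of them leave the endoplasmic reticulum only with the β subunit CDC50A, encoded by *Tmem30a*. Scramblases move lipids in both directions without ATP, and phosphatidylserine that reaches the outer face is read by macrophages as a signal for engulfment. The set held 8 genes, taken by name from the 46078 genes in each deposited count table. They were the flippase ATPases *Atp8a1*, *Atp11a* and *Atp11b*, the β subunit *Tmem30a*, the scramblases *Ano6* and *Xkr8*, and *Plscr1* and *Plscr3* of the phospholipid scramblase family.

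RNA was sequenced from polychromatic (Poly-E) and orthochromatic (Ortho-E) erythroblasts, the last nucleated stages of red cell formation, sorted by CD44 and Ter119 from steady-state bone marrow. The mice were on a C57BL/6N background labelled A<tm1Brd>. They were either wild-type (*Ypel4*+/+) or homozygous for the conventional trap allele Ypel4<tm1a(EUCOMM)Wtsi>, which carries the splice acceptor of *En2* (*Ypel4*−/−). There were 4 libraries from 4 numbered mice in each of the 4 groups, 16 in all, and the labels gave neither age nor sex. The comparisons asked how these genes differed between the stages and whether they differed with loss of *Ypel4*.

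Library totals ran from 2670173 to 12451234 counts. *Ypel4* lay between 9.90 and 224 CPM (counts per library size, here scaled by TMM, a trimmed mean over genes) in the *Ypel4*−/− libraries and between 490 and 5441 CPM in the *Ypel4*+/+ libraries, without overlap within a population, and *En2* had 0 counts in every *Ypel4*+/+ library. Levels below are the same CPM, scaled across all 16 libraries and divided by the exon length in kb, so that genes can be compared. The scaling decides what counts as no change between stages, and *Hba-a1* with *Hbb-bs* took 3.93% to 4.802% of the counts in Poly-E and 8.17% to 10.5% in Ortho-E. The median log2 difference of all genes tested was −0.193 in *Ypel4*+/+ and −0.089 in *Ypel4*−/− with TMM, but −1.450 and −1.475 with plain library totals. In bulk libraries such as these, fewer cells of a type and less RNA per cell cannot be told apart.

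Because *Atp8a1*, *Ano6* and *Atp11b* were the members called higher in Ortho-E with TMM scaling in both genotypes, the 250 bases before their annotated starts are shown, on the coding strand and 5′ to 3′, as given by RefSeq for GRCm38.p6. Capitals mark matches on either strand to a GC box (GGGCGG), to CACCC, to CCAAT, or to a GATA word, which is AGATAA, or TGATAA, or AGATAG, or TGATAG. The windows are chr5:67847432-67847681 on the minus strand for *Atp8a1*, chr15:95790593-95790842 on the plus strand for *Ano6* and chr3:35753813-35754062 on the plus strand for *Atp11b*.
Atp8a1: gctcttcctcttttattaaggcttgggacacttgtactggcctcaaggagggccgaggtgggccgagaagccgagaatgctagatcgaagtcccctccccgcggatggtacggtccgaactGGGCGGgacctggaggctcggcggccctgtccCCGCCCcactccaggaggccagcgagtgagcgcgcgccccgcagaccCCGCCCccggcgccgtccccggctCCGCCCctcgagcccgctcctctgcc
Ano6: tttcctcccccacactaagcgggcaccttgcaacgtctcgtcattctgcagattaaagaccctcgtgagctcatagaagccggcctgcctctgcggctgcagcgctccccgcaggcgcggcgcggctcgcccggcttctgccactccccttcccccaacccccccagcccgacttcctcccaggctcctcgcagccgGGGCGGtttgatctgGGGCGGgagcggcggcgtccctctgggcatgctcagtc
Atp11b: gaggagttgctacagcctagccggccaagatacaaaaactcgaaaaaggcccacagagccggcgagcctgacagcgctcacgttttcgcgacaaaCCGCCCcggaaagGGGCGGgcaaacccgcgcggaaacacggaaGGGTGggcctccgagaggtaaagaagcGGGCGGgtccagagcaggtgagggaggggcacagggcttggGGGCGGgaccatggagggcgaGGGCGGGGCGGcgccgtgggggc

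The *Atp8a1* window held 4 GC boxes, the *Ano6* window 2 and the *Atp11b* window 6, some of them overlapping. None of these windows held a GATA word, and a CACCC match stood only in that of *Atp11b*, at base −112. Of the 7 members with a RefSeq window, 6 had a GC box, 4 a CACCC, 1 a GATA word (*Tmem30a*) and 0 a CCAAT. Among 32851 windows of the same length the shares were 32.7% for the GC box, 52.0% for CACCC, 26.5% for a GATA word and 33.8% for CCAAT. These are matches of letters and not mapped sites.

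*Atp8a1* codes for a phosphatidylserine flippase and lies on chromosome 5 at 67618140 to 67847434 (GRCm38, minus strand). In *Ypel4*+/+ Poly-E its level was 8.33, 6.22, 5.94 and 6.63 CPM per kb in mice 1 to 4, and in *Ypel4*+/+ Ortho-E it was 22.8, 19.9, 18.7 and 22.8. In *Ypel4*−/− Poly-E it was 5.92, 5.94, 6.68 and 6.24, and in *Ypel4*−/− Ortho-E 20.9, 17.2, 21.7 and 21.1. All Ortho-E libraries lay above all Poly-E libraries, with no overlap in either genotype. The log2 fold change of Ortho-E over Poly-E was 1.67 ± 0.13 (SE) in *Ypel4*+/+ and 1.87 ± 0.12 in *Ypel4*−/−, which is 3.18-fold and 3.66-fold (edgeR quasi-likelihood test, adjusted p = 1.48e-11 and 4.20e-15). With plain library totals the log2 fold changes were 0.39 and 0.46, still called higher (adjusted p = 0.00608 and 0.000682). Set against the median gene, *Atp8a1* was 1.86 higher on the log2 scale with TMM and 1.84 higher with library totals in *Ypel4*+/+.

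*Atp11b* codes for another flippase ATPase, on chromosome 3 at 35754106 to 35856276. Its levels in mice 1 to 4 were 6.58, 5.93, 6.15 and 6.27 CPM per kb for *Ypel4*+/+ Poly-E, then 6.86, 8.34, 8.03 and 8.16 for Ortho-E. In *Ypel4*−/− they were 5.92, 6.80, 5.73 and 6.39 in Poly-E against 6.28, 6.55, 8.13 and 7.38 in Ortho-E. The stages did not overlap in *Ypel4*+/+ but did in *Ypel4*−/−. The difference was small, 0.37 ± 0.13 and 0.36 ± 0.13 on the log2 scale (adjusted p = 0.0141 and 0.0174, edgeR). It turned with the scaling: library totals gave −0.91 and −1.06. Relative to the median gene *Atp11b* was 0.56 higher in *Ypel4*+/+ with TMM and 0.54 higher with library totals. Without a filter on low counts neither genotype kept the call (adjusted p = 0.0728 and 0.117, edgeR). In *Ypel4*−/− the call was also lost without Poly-E mouse 3 (0.32, adjusted p = 0.0546), Ortho-E mouse 3 (0.24, adjusted p = 0.169) or Ortho-E mouse 4 (0.32, adjusted p = 0.0561).

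*Atp11a*, the third flippase ATPase of the set, was all but undetected. It had 1 count in *Ypel4*+/+ Poly-E mouse 4, 1 count in *Ypel4*−/− Poly-E mouse 4 and 0 in the other 14 libraries. In Ortho-E the 0 counts allow up to 0.0236 CPM per kb in *Ypel4*+/+ and 0.0205 in *Ypel4*−/−, taking 3 counts over a group as the floor, which covers counting error only. Both stages were at or under that floor, so no fold is given, and the gene was not tested.

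*Tmem30a*, the shared β subunit, was the most abundant of the 8 genes in Poly-E. *Ypel4*+/+ Poly-E libraries held 11.8, 12.9, 13.5 and 14.0 CPM per kb, and Ortho-E libraries of the same mice 8.23, 9.10, 13.3 and 14.8. The *Ypel4*−/− mice held 11.2, 11.8, 13.8 and 13.5 at the first stage and 9.09, 10.6, 12.6 and 12.6 at the second. The stages overlapped in both genotypes, and *Ypel4*+/+ Ortho-E mice 1 and 2 lay apart from mice 3 and 4. The log2 difference was −0.15 ± 0.16 in *Ypel4*+/+ (95% interval −0.47 to 0.17, adjusted p = 0.438) and 0.00 ± 0.13 in *Ypel4*−/− (−0.27 to 0.28, adjusted p = 0.991). On plain library totals it was called lower, by −1.43 and −1.41, which is within 0.1 of the median gene there.

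*Ano6* codes for a calcium-activated scramblase (TMEM16F) that exposes phosphatidylserine on platelets. Poly-E levels in *Ypel4*+/+ mice 1 to 4 were 2.39, 1.75, 1.85 and 1.65 CPM per kb, and their Ortho-E levels were 3.97, 4.35, 7.56 and 6.62. The *Ypel4*−/− mice had 1.89, 1.72, 2.13 and 1.75 at Poly-E, then 6.22, 7.43, 6.24 and 6.81 at Ortho-E. The stages were apart in both genotypes, although *Ypel4*+/+ Ortho-E mice 1 and 2 held less than any other Ortho-E library. The log2 fold change was 1.63 ± 0.20 in *Ypel4*+/+ and 2.00 ± 0.16 in *Ypel4*−/−, or 3.10-fold and 3.99-fold (adjusted p = 8.34e-08 and 6.11e-13, edgeR). Without *Ypel4*+/+ mice 1 and 2, an alternative chosen after seeing these values, the first was 2.07. With library totals it was 0.35 in *Ypel4*+/+, no longer called (adjusted p = 0.127), and 0.58 in *Ypel4*−/−.

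*Xkr8*, which codes for the scramblase that caspases switch on in dying cells, had 1 count in *Ypel4*+/+ Poly-E mouse 3, 1 in *Ypel4*−/− Poly-E mouse 1 and 0 elsewhere. The Ortho-E counts of 0 allow up to 0.0610 CPM per kb in *Ypel4*+/+ and 0.0529 in *Ypel4*−/−. It was not tested. Its partner *Bsg* (basigin), the chaperone that carries it to the cell surface, was abundant, at 693 ± 156 CPM per kb in *Ypel4*+/+ Poly-E and 1041 ± 285 at the next stage (SD, n = 4).

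*Plscr3*, a family member known for acting on mitochondrial cardiolipin, had Poly-E levels of 5.08, 5.41, 6.43 and 5.03 CPM per kb in *Ypel4*+/+ mice, with 5.23, 5.62, 6.99 and 7.41 at the Ortho-E stage. The *Ypel4*−/− mice had 6.92, 7.08, 5.08 and 5.62 at Poly-E, followed by 6.86, 6.25, 7.31 and 9.07 at Ortho-E. The stages overlapped in both genotypes. Its log2 fold change was 0.25 ± 0.17 in *Ypel4*+/+ (adjusted p = 0.215) and 0.44 ± 0.16 in *Ypel4*−/− (adjusted p = 0.0179, edgeR). The second call was lost without Poly-E mouse 3 (0.36), Ortho-E mouse 3 (0.41) or Ortho-E mouse 4 (0.30), and the first was gained without Poly-E mouse 3 (0.46, adjusted p = 0.0340). With library totals both were negative, −1.03 and −0.97. *Plscr3* shares 28.3% of its exon bases with *Tnk1* on the opposite strand, where the unstranded counting assigned reads to neither.

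*Plscr1*, which was first described as a calcium-responsive scramblase and is induced by interferon, was barely present. The Poly-E counts of *Ypel4*+/+ mice 1 to 4 were 1, 5, 10 and 7, and their Ortho-E counts were 0, 1, 1 and 2. The *Ypel4*−/− mice had 5, 4, 4 and 18 at Poly-E, then 0, 0, 0 and 1 at Ortho-E. The ratio of Ortho-E to Poly-E was 0.569 in *Ypel4*+/+ (95% exact counting interval 0.143 to 1.67) and 0.0938 in *Ypel4*−/− (0.00230 to 0.563). The fitted log2 change was −0.74 ± 0.82 (adjusted p = 0.455) and −2.98 ± 1.01 (adjusted p = 0.0110), and the second rests on a single Ortho-E count.

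**Figure D1:**
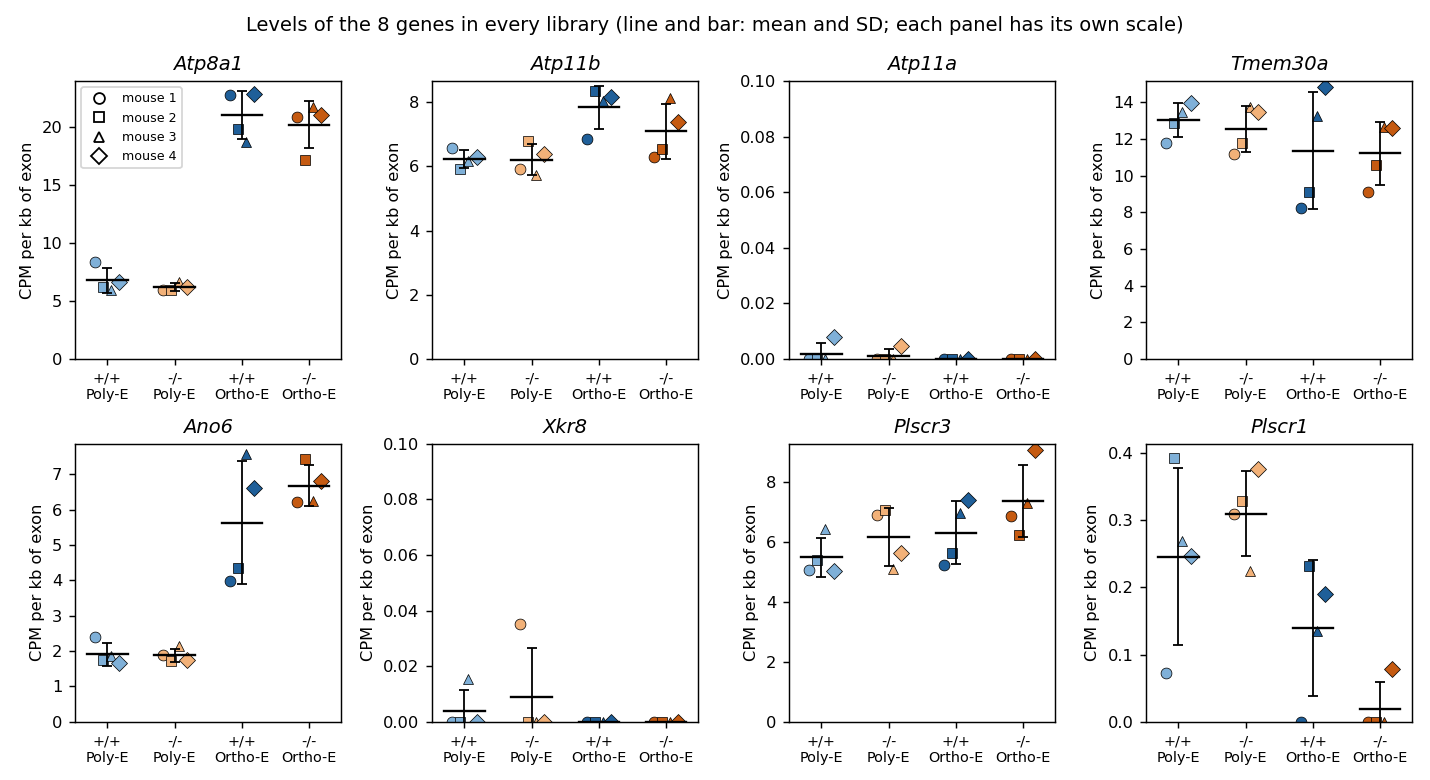
Level of each of the 8 genes in the 16 libraries, in TMM-scaled CPM per kb of exon on a linear axis that differs between panels; marker shape gives the mouse number, horizontal lines the mean and bars the SD of 4 libraries. *Atp8a1* and *Ano6* separate the stages without overlap, *Tmem30a* and *Plscr3* overlap, and *Atp11a* and *Xkr8* lie at or near 0.

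Of the 8 members, 6 reached the total of 10 counts needed for a test in each stage comparison. In *Ypel4*+/+, 3 were called higher in Ortho-E and 0 lower, where 26.4% of all genes tested were called higher and 32.1% lower. In *Ypel4*−/−, 4 were called higher and 1 lower, against 29.5% and 31.5% of all genes. The median log2 fold change of the tested members was 0.31 and 0.40, beside −0.193 and −0.089 for all genes. On library totals the members called became 1 higher and 4 lower in *Ypel4*+/+ and 2 higher and 4 lower in *Ypel4*−/−. Calls over all 11747 genes tested in *Ypel4*+/+ moved from 3101 higher and 3773 lower to 1217 and 7087. Over the 11973 genes tested in *Ypel4*−/− they moved from 3538 and 3767 to 1337 and 7289. Without *Ypel4*+/+ mice 1 and 2, 4 members were called. In *Ypel4*−/− the members called fell from 5 to 3 when Poly-E mouse 3, Ortho-E mouse 3 or Ortho-E mouse 4 was left out.

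**Figure D2:**
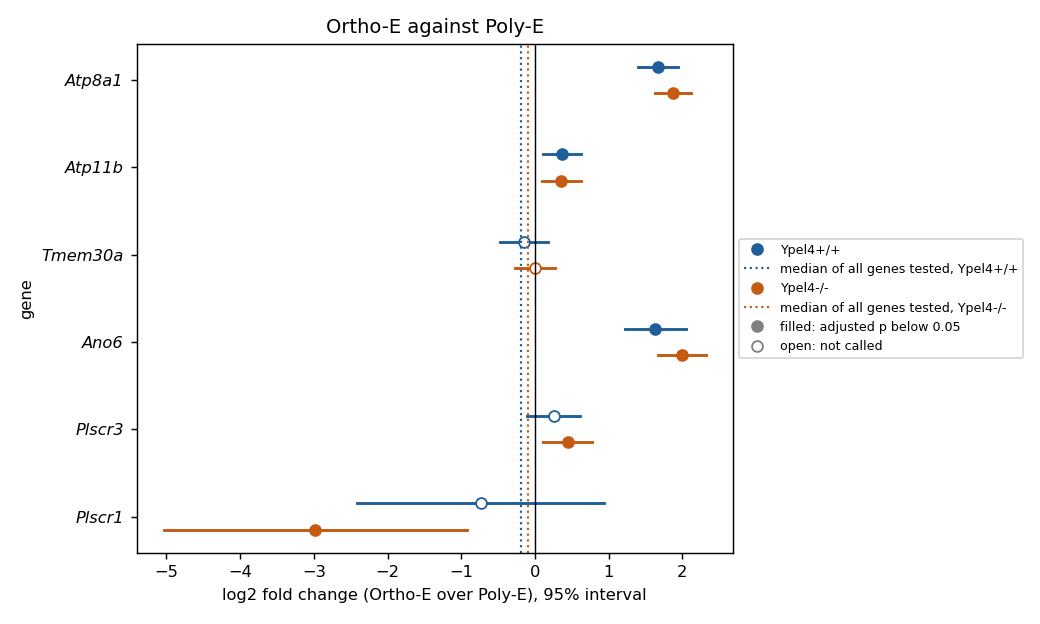
Log2 fold change of Ortho-E over Poly-E with its 95% interval for the 6 tested members, in *Ypel4*+/+ (blue) and *Ypel4*−/− (orange); filled points passed an adjusted p of 0.05 and dotted lines give the median of all genes. *Atp8a1* and *Ano6* lie to the right in both genotypes, and *Tmem30a* lies near the median.

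The order of the members changed between the stages. In *Ypel4*+/+ Poly-E, *Tmem30a* led with 13.0 ± 0.94 CPM per kb (SD, n = 4), followed by *Atp8a1* at 6.78 ± 1.07, *Atp11b* at 6.23 ± 0.27 and *Plscr3* at 5.49 ± 0.65, whose ranges overlapped from each to the next. *Ano6* came below these at 1.91 ± 0.33, and *Plscr1* below *Ano6* at 0.246 ± 0.132. In *Ypel4*+/+ Ortho-E, *Atp8a1* led with 21.05 ± 2.06, clear of *Tmem30a* at 11.4 ± 3.19. *Atp11b* at 7.85 ± 0.67, *Plscr3* at 6.31 ± 1.05 and *Ano6* at 5.63 ± 1.74 followed, each overlapping the one before it. The *Ypel4*−/− libraries gave the same leading genes, with *Tmem30a* at 12.6 ± 1.26 in Poly-E and *Atp8a1* at 20.2 ± 2.04 in Ortho-E. In TPM, which rests on the whole library, the mean of *Atp8a1* in *Ypel4*+/+ went from 27.3 to 31.6 and that of *Tmem30a* from 52.5 to 17.2.

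A ratio of 2 genes within a library does not depend on the scaling between libraries. These ratios, of levels per kb, were chosen after the values were seen and are given without a test. *Atp8a1* over *Atp11b*, both flippase ATPases, was 1.27, 1.05, 0.965 and 1.06 in Poly-E of *Ypel4*+/+ mice 1 to 4, and 3.32, 2.38, 2.34 and 2.797 in their Ortho-E libraries. For *Ypel4*−/− it lay between 0.874 and 1.17 at the first stage, then between 2.63 and 3.32 at the second. The 2 genes thus stood at like levels in Poly-E, and *Atp8a1* was above *Atp11b* in every Ortho-E library. Set against the β subunit, *Atp8a1* over *Tmem30a* was 0.525 ± 0.122 (SD, n = 4) in *Ypel4*+/+ Poly-E and 1.97 ± 0.626 after the stage change, with 0.495 ± 0.0282 and 1.83 ± 0.314 for *Ypel4*−/−. Ortho-E mouse 1 held the highest value in both genotypes, 2.76 and 2.296. The scramblase *Ano6* over *Tmem30a* was 0.148 ± 0.0371 and 0.494 ± 0.0528 across the stages of *Ypel4*+/+, and 0.1498 ± 0.0164 and 0.606 ± 0.104 across those of *Ypel4*−/−. None of the 3 ratios overlapped between the stages in either genotype.

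**Figure D3:**
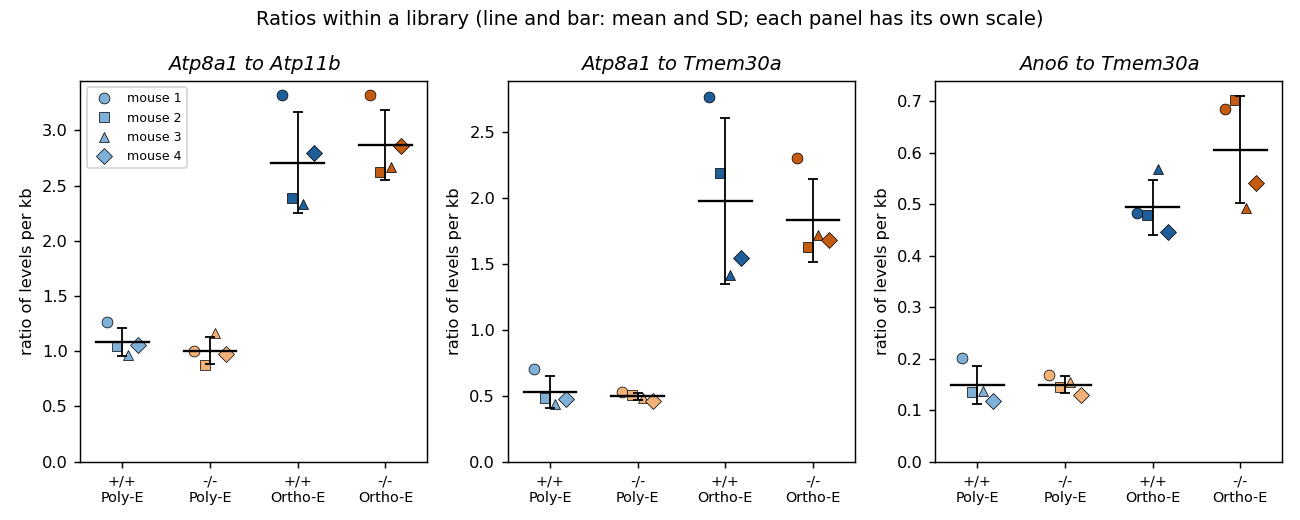
Ratio of levels per kb of exon within each of the 16 libraries, on linear axes from 0, for *Atp8a1* to *Atp11b*, *Atp8a1* to *Tmem30a* and *Ano6* to *Tmem30a*; marker shape gives the mouse number, lines the mean and bars the SD of 4 libraries. The Ortho-E libraries lie above the Poly-E libraries in all 3 panels, from 2.34 against at most 1.27 in the first.

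A further 45 genes of phospholipid transport were listed. In *Ypel4*+/+, 23 of them could be tested, of which 8 were called higher in Ortho-E and 3 lower (1 and 13 with library totals), and the middle log2 fold change was 0.26. In *Ypel4*−/−, 22 were tested, 10 called higher and 4 lower (2 and 14 with library totals), and the middle value was 0.48. The percentages of all genes given above stand beside the counts with TMM, and the calls over all genes on library totals beside the others. The endomembrane scramblases split. *Atg9a*, the scramblase of autophagosome precursors, was 2.48 ± 0.13 higher on the log2 scale in *Ypel4*+/+, and *Vmp1*, a scramblase of the endoplasmic reticulum, was 1.51 ± 0.12 higher, while *Tmem41b*, its partner in lipid scrambling, was lower (−1.18 ± 0.18). With library totals *Atg9a* stayed higher (1.202), *Vmp1* was not called (0.23, adjusted p = 0.0762, edgeR) and *Tmem41b* stayed lower (−2.47). *Atg9a* shares 32.6% of its exon bases with other annotated genes.

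For several genes the direction held with TMM alone. In the XK family, *Xk*, the Kell-linked protein of the red cell membrane, was called higher with TMM by 0.51 ± 0.15 and 0.63 ± 0.12 on the log2 scale in *Ypel4*+/+ and *Ypel4*−/−, but library totals gave −0.77 and −0.79. *Bsg* was higher with TMM by 0.62 ± 0.20 and 0.59 ± 0.13 and lower with library totals (−0.66 and −0.84). In contrast, *Vps13a*, a lipid transfer protein that binds XK, was lower with TMM (−1.21 ± 0.19 and −1.10 ± 0.16) and with library totals (−2.50 and −2.52). The bile canalicular phosphatidylcholine floppase *Abcb4* was 1.18 ± 0.11 and 1.403 ± 0.11 higher with TMM, against −0.10 and −0.015 with library totals. Of the phosphatidylserine synthases, *Ptdss2* was 0.44 ± 0.12 and 0.51 ± 0.11 higher with TMM (−0.84 and −0.91 with library totals). *Ptdss1* was lower with both scalings (−1.84 ± 0.34 and −1.09 ± 0.27 with TMM, −3.12 and −2.49 with library totals). *Plscr4* was 0.53 ± 0.21 and 0.76 ± 0.18 higher with TMM and turned to −0.76 and −0.65 with library totals. With TMM, *Atp10d*, which GENCODE annotates as a polymorphic pseudogene, was called higher only in the *Ypel4*+/+ fit (0.92 ± 0.31, but −0.37 with library totals). Only in the *Ypel4*−/− fit were *Nptn* (0.30 ± 0.11, but −1.12 with library totals), *Abca1* (2.66 ± 0.81) and *Atp8b1* (2.01 ± 0.49) called higher and *Xkr5* lower (−2.43 ± 0.89). Library totals there gave 1.35 for *Abca1* and 0.64 for *Atp8b1*, not called (adjusted p = 0.143 and 0.245, edgeR). *Xkr5* stayed called (−3.68), and with library totals it was also called lower in *Ypel4*+/+ (−2.69, adjusted p = 0.00698, edgeR). In *Ypel4*−/−, *Abca1*, *Atp8b1* and *Xkr5* had only 13, 30 and 2 counts in Ortho-E and 6, 23 and 42 in Poly-E. The difference between the fits was not called for any of these genes.

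Markers of other marrow cells were also present. The summed level of 5 B-cell markers was 5.48 to 8.49 CPM per kb for *Ypel4*+/+ Poly-E, then 10.2 to 12.9 for Ortho-E, and 2 of 5 tested were called higher. For 8 neutrophil and myeloid markers it was 2.41 to 4.95 and 4.97 to 26.3 (2 of 5 tested called higher, *Elane* at 0 in Ortho-E), and for 8 macrophage markers 1.24 to 2.19 and 2.84 to 6.66 (1 of 5 called). The 5 platelet and megakaryocyte markers summed to between 14.6 and 18.4 in Poly-E against 28.5 and 33.4 in Ortho-E, with *Pf4* and *Gp1bb* at 0 in Ortho-E. Of the 2 tested, *Itga2b* was called higher (2.25 ± 0.14 on the log2 scale) and *Gp9* was not called. These sums did not overlap between the stages of *Ypel4*+/+. In *Ypel4*−/− the B cell sum was 8.03 to 13.8 in Poly-E against 15.3 to 20.0 in Ortho-E (4 of 5 tested called higher), and the platelet sum 13.3 to 22.2 against 26.9 to 28.3 (1 of 3). The myeloid sum, 2.05 to 7.23 against 5.31 to 19.6 (5 of 6), and the macrophage sum, 1.53 to 2.48 against 2.07 to 3.66 (4 of 7), overlapped between the stages. The platelet sums, each of 5 genes, lay above the level of the 1 gene *Ano6* in the same groups. In *Ypel4*−/− Ortho-E, *Gp1bb*, *Pf4* and *Ppbp* were at 0. Of the 3 platelet markers tested between the stages of *Ypel4*−/−, 1 was higher and 2 lower by sign (middle log2 fold change −0.02). The part of other marrow cells in the higher levels of *Ano6*, *Atp8a1* and *Atp11b* was not tested. The 7 erythroid markers summed to between 35758 and 229140 CPM per kb in every library.

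*Atp8a1* followed the stage split closely. Over 16 libraries, the genes with the most similar pattern of log2 CPM among 5274 compared were *Pepd* (Pearson r = 0.996), *Arl4a* (r = 0.996) and *H2-T24* (r = 0.996). For *Tmem30a* they were *Nudt4* (r = 0.928), *Tial1* (r = 0.920) and *Tmx1* (r = 0.916), and for *Atp11b*, *Zfp407* (r = 0.890), *Brwd3* (r = 0.874) and *Lysmd3* (r = 0.861). The points share the stage difference and the scaling, so these values are a description.

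Loss of *Ypel4* was then examined within each stage. In Poly-E, 0 of the 6 tested members were called between *Ypel4*−/− and *Ypel4*+/+, where 0.00807% of all genes tested were called, 0 had an unadjusted p below 0.05, and DESeq2 also called 0. The log2 differences were −0.12 for *Atp8a1* (95% interval −0.36 to 0.12), −0.0038 for *Atp11b* (−0.22 to 0.21), −0.05 for *Tmem30a* (−0.28 to 0.17), −0.01 for *Ano6* (−0.35 to 0.33) and 0.15 for *Plscr3* (−0.15 to 0.46). For these 5 genes the intervals thus end below 0.5 on the log2 scale in either direction. *Plscr1*, with few counts, allowed far more (0.36, −0.63 to 1.35).

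In Ortho-E, 0 of 5 tested members were called by edgeR, where 0.0285% of all genes were called, 0 had an unadjusted p below 0.05, and DESeq2 called 0. *Atp8a1* differed by −0.04 (−0.25 to 0.17), *Atp11b* by −0.13 (−0.38 to 0.13) and *Tmem30a* by −0.0098 (−0.32 to 0.30). *Ano6* differed by 0.24 (−0.12 to 0.60) and *Plscr3* by 0.23 (−0.12 to 0.58), and both ranges overlapped between the genotypes. The *Ano6* value rested on *Ypel4*+/+ mice 1 and 2, and without them it was −0.035. *Plscr1* had 4 counts in *Ypel4*+/+ and 1 in *Ypel4*−/− Ortho-E, too few for the test.

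The stage change did not differ detectably between the genotypes for any of the 6 members in the interaction test, where 0% of 13318 genes were called, 0 members had an unadjusted p below 0.05, and DESeq2 called 0 members. The difference of the stage changes was 0.07 for *Atp8a1* (−0.28 to 0.42), −0.14 for *Atp11b* (−0.50 to 0.23), 0.24 for *Ano6* (−0.27 to 0.74), 0.07 for *Plscr3* (−0.42 to 0.56) and 0.02 for *Tmem30a* (−0.40 to 0.45). For *Plscr1* it was −2.31 (−5.11 to 0.50). *Plscr1* and *Plscr3* were called in *Ypel4*−/− and not in *Ypel4*+/+, and this test gave no difference past the threshold for either. Of the 45 other pathway genes, 0 were called by edgeR or DESeq2 among 23 tested in Poly-E, 20 in Ortho-E and 23 in the interaction, and 0, 1 and 1 had an unadjusted p below 0.05.

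**Figure D4:**
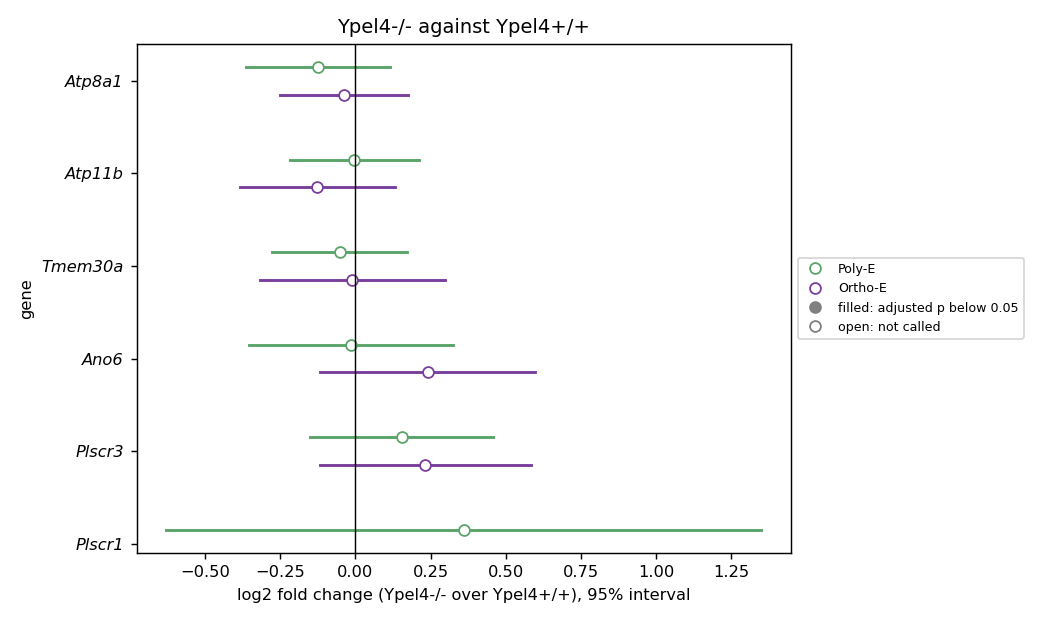
Log2 fold change of *Ypel4*−/− over *Ypel4*+/+ with its 95% interval in Poly-E (green) and Ortho-E (purple) for the tested members; open points were not called. Every interval crosses 0, and the widest is that of *Plscr1* in Poly-E, from −0.63 to 1.35.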

How the data were processed

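Per the labels and the study's methods, libraries were made with TruSeq RNA v2 and sequenced on a NextSeq, and reads were aligned to GRCm38 by the authors in the nf-core/rnaseq pipeline (version 1.4.2), and featureCounts 1.6.4 gave the deposited raw counts of each gene. These are unstranded and leave out reads on several genes or places. Groups and mouse numbers came from the sample titles. A gene entered a fit when its libraries summed to 10 counts or more. The test was edgeR's robust quasi-likelihood F-test after TMM scaling (edgeR 4.0.16, R 4.3.3), called at a Benjamini-Hochberg adjusted p of 0.05. Each stage or genotype comparison used its 8 libraries and the interaction all 16. No mouse term entered these fits. The stage and interaction tests thus treated libraries of the same mouse as independent, except in the replicate block below. Intervals are at 95%. Scripts were tested on simulated counts. Alternatives were DESeq2 1.42.0, its size factors, library totals, leaving out 13 globin genes, other filters, a replicate block, leaving out libraries, and TPM for levels.

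Named genes were all members, *Xk*, *Bsg*, pathway genes called in any comparison, the targeted gene and *En2*, marker lists, and the 3 genes most similar to each of the 3 most abundant members. Some listed genes are not reported here. The members, lists and tests were chosen with earlier results of these data known. Poly-E and Ortho-E libraries of one number came from one mouse, as a shared animal number in the deposited names shows. Their deviations over 5279 genes correlated by 0.416 to 0.605 in *Ypel4*+/+ and 0.083 to 0.505 in *Ypel4*−/−. Between different numbers the correlation reached 0.39 in *Ypel4*+/+ (Poly-E mouse 3 with Ortho-E mouse 4). In *Ypel4*−/−, Poly-E mouse 2 was closer to Ortho-E mouse 1 (0.257) than to Ortho-E mouse 2 (0.083). Same-numbered mice of the 2 genotypes correlated by 0.233 to 0.632 in Poly-E and by −0.093 to 0.304 in Ortho-E. For *Ypel4*+/+ Poly-E mice 1, 2 and 3 the closest *Ypel4*−/− library had a different number (0.423, 0.487 and 0.591). For mouse 4 it had the same number. The main tests did not treat the numbers as pairing mice of the 2 genotypes. Promoter letters came from RefSeq (GRCm38.p6), and gene positions and exon overlaps from the deposited tables.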

Additional observations from a re-analysis of the deposited data

Results flagged for a closer look

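Looking at 32 sets of 4 libraries (the 8 members in each group), 5 held a library further from its neighbour, relative to the whole range, than Dixon's 95% limit allows. The usual rate of about 1 such set in 20 does not apply to a lone count among 0 counts, where the gap is always the whole range. Sets with 0 in every library could not be flagged. All 5 came from a lone count where the other libraries of the group had 0. They were *Atp11a* at 0.0078 CPM per kb in *Ypel4*+/+ Poly-E mouse 4 and 0.00461 in *Ypel4*−/− Poly-E mouse 4, *Xkr8* at 0.0153 in *Ypel4*+/+ Poly-E mouse 3 and 0.0353 in *Ypel4*−/− Poly-E mouse 1, and *Plscr1* at 0.0784 in *Ypel4*−/− Ortho-E mouse 4.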

How the results depend on the processing

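*Atp8a1* was called higher in Ortho-E in both genotypes under every alternative run, and *Ano6* under every one but library totals in *Ypel4*+/+ (0.35). With library totals 5 members were called in *Ypel4*+/+, and *Atp11b* (−0.91 and −1.06), *Plscr3* (−1.03 and −0.97) and, in *Ypel4*−/−, *Tmem30a* (−1.41) reversed, on a scale where the median gene lay at −1.450 and −1.475. Without a filter on low counts 3 members were called in *Ypel4*−/−, and *Atp11b* lost its call in *Ypel4*+/+ (adjusted p = 0.0728) and *Ypel4*−/− (0.117), as did *Plscr3* in *Ypel4*−/− (0.0749). Leaving out single libraries gave 3 to 5 members called in *Ypel4*−/−.

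Values near 0 changed sign. For *Tmem30a* between stages these were 0.032 with filterByExpr and 0.10 without *Ypel4*+/+ mice 1 and 2 in *Ypel4*+/+, and −0.064 without a filter, −0.0047 with the replicate block and −0.098 to 0.088 with a library left out in *Ypel4*−/−. In Poly-E between genotypes, *Atp11b* gave 0.048 (library totals), 0.00026 (filterByExpr), 0.013 (without the 2 mice) and −0.041 to 0.035 (a library left out), and *Ano6* 0.040 (library totals), 0.0031 (replicate block), 0.10 (without the 2 mice) and −0.079 to 0.098. In Ortho-E, *Atp8a1* gave 0.00067 (library totals), 0.015 (without the 2 mice) and −0.083 to 0.016, *Tmem30a* 0.014 (library totals), 0.0029 (replicate block) and −0.13 to 0.10, and *Ano6* −0.035 (without the 2 mice). In the interaction, leaving out the 2 mice gave −0.056 for *Atp8a1*, −0.23 for *Tmem30a*, −0.21 for *Ano6* and −0.071 for *Plscr3*, and leaving out a library gave −0.10 to 0.19 for *Tmem30a* and −0.064 to 0.20 for *Plscr3*.

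Calls over all genes between genotypes were few and moved. In Poly-E the 1 gene became 2 (DESeq2), 4 (no filter), 4 (replicate block), 5 (DESeq2 on 16 libraries) and 1 to 2 (a library left out; 2 without *Ypel4*−/− mouse 1). In Ortho-E the 3 became 5 (no filter), 13 (replicate block), 5 (DESeq2 on 16 libraries) and 5 (without the 2 mice). In neither stage are the numbers known to pair mice of the 2 genotypes. In the interaction the 0 became 1 with DESeq2, with the replicate block, without the 2 mice and without *Ypel4*+/+ Ortho-E mouse 1 (0 to 1 with a library left out). None of these was a member, and the replicate block changed no call of a member. The cause of these changes was not tested. Depth limits *Atp11a*, *Xkr8* and *Plscr1*, whose counts per library reached at most 1, 1 and 18.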
